A study of Mus musculus with 40 samples.

Results

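Glucocorticoid-responsive genes were followed in CD11b+ myeloid cells that had been sorted from mouse brains carrying gliomas. The 9 genes, Fkbp5, Tsc22d3, Per1, Zbtb16, Sgk1, Ddit4, Klf9, Cdkn1a and Nr3c1, were chosen by name from the 54513 rows of each of 3 expression tables, with earlier results of these data known: opposite shifts with anti-PD-1 at 28 days post implantation (DPI) and with peptides in U87-MG gliomas had been of interest. For that reason the values of these contrasts are given below as a description, without a test. All 9 genes were found in each table.

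Glucocorticoids, corticosterone in the mouse, enter the cell and bind the glucocorticoid receptor, which HSP90 and its partner proteins hold in the cytoplasm. The hormone-bound receptor moves to the nucleus, where it binds palindromic DNA elements and switches on genes such as Fkbp5 and Tsc22d3. It also restrains inflammatory genes driven by NF-kappaB and AP-1. In macrophages and microglia the hormone is known as a brake on inflammatory activation, and its blood level follows the time of day and stress.

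The tables hold bulk RNA-seq of 35 samples of CD11b+ cells from male mice aged 10 to 12 weeks. In the first experiment, C57BL/6 mice carried the mouse glioma line GL261 tdTomato+luc+ and were taken at 21 DPI: 3 samples each, every sample a pool of 2 animals, came from naive mice without a tumor and from mice given the solvent of the peptides (vehicle), the peptide 7aaRGD or the peptide 7aaRAE. The second was taken at 28 DPI with 1 animal per sample: 4 mice had received vehicle, 4 7aaRGD, 3 anti-PD-1 and 3 both 7aaRGD and anti-PD-1 (the combination). For these the deposited labels name nude mice, whereas the methods of the study describe GL261 gliomas in C57BL/6 mice. In the third, athymic Foxn1nu mice carried the human glioma line U87-MG RFP+ and were taken at 21 DPI, with 3 samples each of vehicle, 7aaRGD and 7aaRAE from pools of 2 animals. Such mice lack a thymus and nearly all mature T cells but keep NK and myeloid cells. Peptides were delivered into the tumor by an osmotic pump filled at 2 mg/ml. In the second experiment the antibody against the checkpoint receptor PD-1 was injected into the peritoneum at 10 mg/kg. According to the study, control mice of that experiment received IgG. The peptide 7aaRGD carries the integrin-binding motif Arg-Gly-Asp, and in 7aaRAE this motif is changed to Arg-Ala-Glu. No treatment group received a glucocorticoid according to the labels, and corticosterone was not measured in the data used here.

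Values are RPKM, reads scaled by exon length and by sequencing depth, obtained by subtracting 2 from the deposited numbers; read depth is unknown. Each sample held between 9327 and 9820 protein-coding genes at 1 RPKM or more. The microglial markers P2ry12, Tmem119 and 7 others were all measured above 1 RPKM in every group. Their summed level was 16198 to 16764 RPKM in naive mice, 1351 to 2693 RPKM in GL261 gliomas at 21 DPI, 1567 to 3246 RPKM at 28 DPI and 6559 to 10918 RPKM in U87-MG gliomas. Summed levels of 5 neuronal markers stayed at or under 1.72 RPKM. In such bulk samples, fewer cells of a type and less RNA per cell cannot be told apart.

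By role, the genes fall into 5 kinds. Fkbp5 (chr17:28399094-28517527, minus strand, mm10) encodes an HSP90-bound chaperone that lowers the hormone affinity of the receptor and so closes a short feedback loop. Tsc22d3 (chrX:140539528-140600659, minus strand), which encodes GILZ, and Zbtb16 (chr9:48654297-48836222, minus strand), which encodes the zinc finger repressor PLZF, are induced by the hormone in many cell types, and GILZ binds NF-kappaB and AP-1 proteins. Per1 (chr11:69095217-69109960, plus strand) encodes a negative arm of the circadian clock, and Klf9 (chr19:23141226-23168134, plus strand) a Krüppel-like transcription factor that is a direct receptor target. Ddit4 (chr10:59949669-59951834, minus strand), whose protein REDD1 inhibits mTORC1 and is also induced by hypoxia, and Sgk1 (chr10:21882184-21999903, plus strand), a kinase of ion transport and cell survival, respond to several stresses besides the hormone. Cdkn1a (chr17:29090976-29100727, plus strand) encodes the cyclin-dependent kinase inhibitor p21, a main target of p53. Nr3c1 encodes the receptor itself.

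The promoter windows of these genes, 250 bases before to 50 bases after an annotated start, were taken from RefSeq (GRCm38.p6) and were available here for 7 of the 9 genes. These 7 genes had 16 windows, of which Sgk1 had 6 and so the most chances of a match. The shares below are over windows and not over genes. They were searched on both strands for the palindromic receptor element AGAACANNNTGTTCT, for its arm AGAACA alone, which the full element also contains, and for the E-box CACGTG, which clock proteins bind. Sgk1 is shown because it alone among the 7 held the full element, which occurred in 3 of 32851 windows (0.00913%). Tsc22d3, beside Sgk1 the one gene with the arm, is shown for it, a motif found in 19% of all windows. Per1 and Fkbp5 are shown for the E-box, which a Sgk1 window also held and which occurred in 7.15% of all windows. Each is printed 5′ to 3′ on the strand of its gene, with the letters of the motif it is shown for in capitals.
Sgk1, bases -250 to -1 before the start, chr10:21993640-21993889, plus strand: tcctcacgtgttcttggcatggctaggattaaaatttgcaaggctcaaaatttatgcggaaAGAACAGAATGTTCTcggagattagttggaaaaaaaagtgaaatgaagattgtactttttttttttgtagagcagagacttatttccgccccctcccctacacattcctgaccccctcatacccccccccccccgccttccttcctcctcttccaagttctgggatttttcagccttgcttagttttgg
Tsc22d3, bases -225 to -140, chrX:140600662-140600747, minus strand: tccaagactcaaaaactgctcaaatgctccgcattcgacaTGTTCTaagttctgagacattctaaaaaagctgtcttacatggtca
Per1, bases -206 to -121, chr11:69098743-69098828, plus strand: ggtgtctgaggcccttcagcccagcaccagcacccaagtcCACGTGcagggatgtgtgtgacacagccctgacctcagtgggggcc
Fkbp5, bases -209 to -124, chr17:28486273-28486358, minus strand: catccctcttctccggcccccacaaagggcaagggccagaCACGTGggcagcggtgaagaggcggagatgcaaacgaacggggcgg
In the annotation the Sgk1, Per1 and Fkbp5 stretches lie inside their own genes but in no exon, and the Tsc22d3 stretch lies outside any annotated gene. A match is a description of letters and does not show that the receptor or a clock protein bound there.

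At 28 DPI, the genes fell into a group that was low where anti-PD-1 had been given and a group that was not. Fkbp5 stood at 52.4, 94.6, 44.1 and 62.7 RPKM in the vehicle samples 1 to 4 and at 93.5, 50.2, 51.5 and 55.5 RPKM in the 7aaRGD samples 1 to 4. With anti-PD-1 alone it stood at 5.98, 24.3 and 44.6 RPKM in samples 1 to 3, and with the combination at 5.71, 8.46 and 6.06 RPKM. All 3 combination samples were under every vehicle and 7aaRGD sample, while anti-PD-1 sample 3 lay within the vehicle range. Klf9 showed wider gaps. It was at 19.1, 32.03, 20.8 and 24.0 RPKM with vehicle, at 21.7, 12.7, 22.5 and 16.2 RPKM with 7aaRGD, at 1.70, 4.12 and 8.46 RPKM with anti-PD-1 and at 0.971, 0.698 and 1.06 RPKM with the combination. The 6 samples that had received the antibody were all under the 8 that had not.

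Ddit4 split the same samples. It was at 87.6, 129.7, 104.0 and 80.6 RPKM with vehicle and at 110.7, 87.2, 125.8 and 99.0 RPKM with 7aaRGD. The anti-PD-1 samples held 11.3, 11.6 and 46.4 RPKM and the combination samples 10.5, 11.9 and 12.1 RPKM, so that only anti-PD-1 sample 3 stood between the 2 sets. Tsc22d3 was at 43.1, 88.5, 52.4 and 48.3 RPKM with vehicle, at 48.8, 35.9, 57.9 and 41.7 RPKM with 7aaRGD, at 13.1, 17.5 and 38.6 RPKM with anti-PD-1 and at 9.71, 16.3 and 13.2 RPKM with the combination. Here anti-PD-1 sample 3 was under all 4 vehicle samples but above the lowest 7aaRGD sample. Per1 was at 60.9, 74.7, 36.2 and 34.8 RPKM with vehicle, at 32.6, 24.9, 54.5 and 38.4 RPKM with 7aaRGD, at 13.2, 12.6 and 36.9 RPKM with anti-PD-1 and at 12.5, 12.1 and 17.1 RPKM with the combination. For Per1, too, anti-PD-1 sample 3 lay among the samples without the antibody.

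Zbtb16 was the lowest of the genes at this time. It was at 2.78, 1.79, 2.30 and 1.63 RPKM with vehicle, at 3.21, 0.822, 4.08 and 2.79 RPKM with 7aaRGD, at 0.638, 0.0653 and 0.493 RPKM with anti-PD-1 and at 0.140, -0.123 and 0.293 RPKM with the combination, the negative value being a deposited number under the constant. The samples with and without the antibody did not overlap. Sgk1, whose window held the full element printed above, and the receptor gene Nr3c1 showed no such split. Sgk1 ranged from 70.6 to 106.3 RPKM with vehicle, 67.0 to 79.8 RPKM with 7aaRGD, 61.2 to 82.4 RPKM with anti-PD-1 and 54.7 to 72.6 RPKM with the combination. Nr3c1 lay between 11.6 and 12.8 RPKM with vehicle, 12.95 and 15.7 RPKM with 7aaRGD, 12.7 and 14.2 RPKM with anti-PD-1 and 13.9 and 16.4 RPKM with the combination. Cdkn1a went the other way in the combination, at 64.8, 50.2 and 56.6 RPKM, against 25.6, 19.9, 20.5 and 23.3 RPKM with 7aaRGD. With vehicle it was at 67.3, 25.5, 21.6 and 22.03 RPKM, and with anti-PD-1 at 40.5, 36.0 and 26.1 RPKM.

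**Figure D1:**
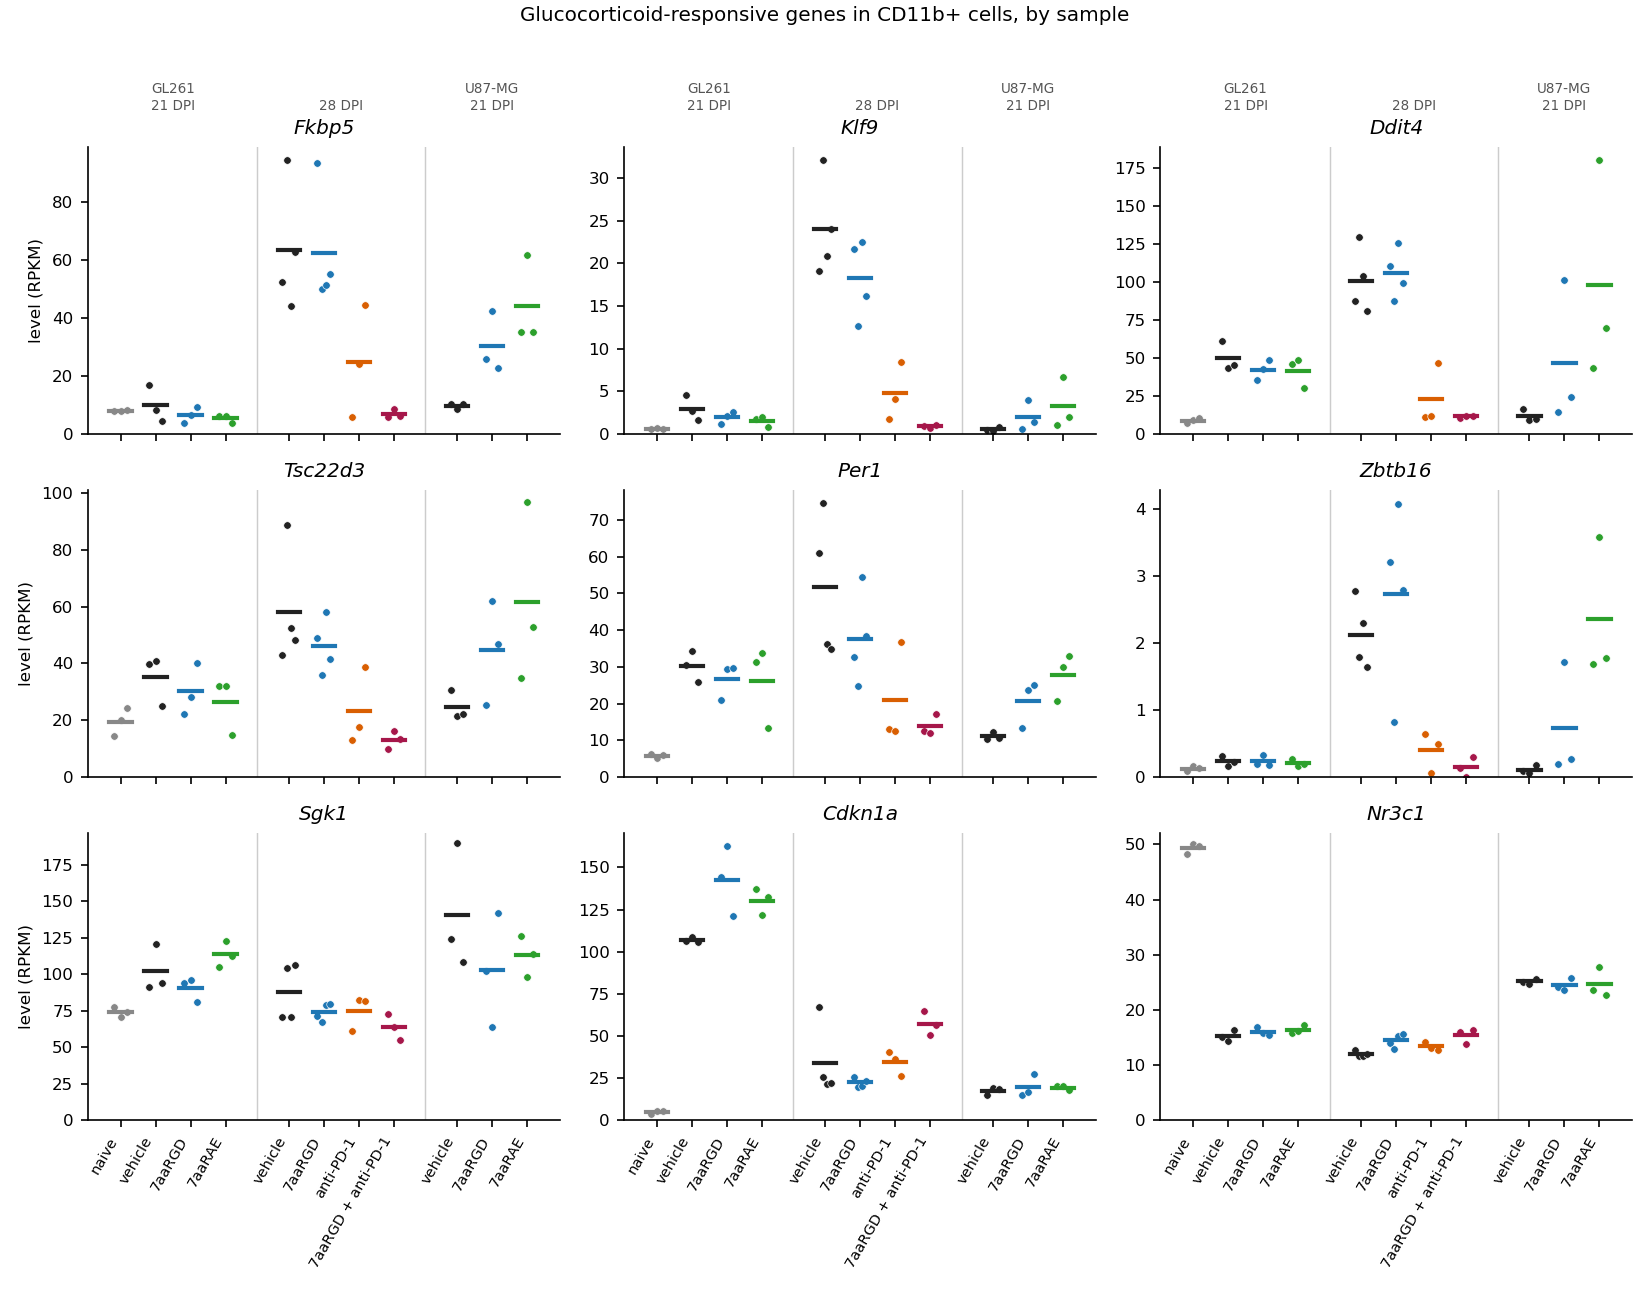
RPKM of each of the 9 genes (vertical axes, linear from 0) in every sample of the 3 experiments, with 1 panel per gene, 1 point per sample and a horizontal line at the group mean; values under 0 are drawn at 0. At 28 DPI the 3 combination samples of Fkbp5 lie between 5.71 and 8.46 RPKM, under all vehicle and 7aaRGD samples, and in U87-MG gliomas all peptide samples of Fkbp5 lie above the vehicle samples.

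Set against the vehicle group as a description, 4 of the 9 genes did not overlap with anti-PD-1 alone, all of them lower. Among all 9737 genes whose mean reached 1 RPKM, 17.1% were lower and 15.4% higher without overlap in the same comparison. Zbtb16, counted among the 4, averaged 0.398 RPKM with anti-PD-1. The filter kept it only because of its level in the groups without the antibody. The differences of means on the log2(RPKM + 1) scale were -2.36 for Ddit4, -2.27 for Klf9, -1.38 for Tsc22d3 and -1.17 for Zbtb16, while Fkbp5 (-1.63) and Per1 (-1.37) overlapped. Without anti-PD-1 sample 3 the count was 7 of 9, with 6 lower (Fkbp5 and Per1 added) and Nr3c1 higher. Over all 9737 genes, those without overlap then went from 3159 to 4240. Without vehicle sample 1 the count was 6, with 4 lower and with Cdkn1a and Nr3c1 higher, beside 3604 of all genes. Without vehicle sample 3 it was 5, all lower, beside 3989 of all genes. Single animals thus moved this count, which leaving out a sample can only raise or leave as it is. With 7aaRGD alone, 1 gene was higher without overlap, Nr3c1 by 0.25 (14.5 ± 1.23 against 11.99 ± 0.535 RPKM, SD, n = 4 each), beside 3.96% of all genes higher and 4.04% lower. Leaving out 7aaRGD sample 2 added Zbtb16, for 2 genes, beside 1493 of all genes in place of 779. After scaling by median ratios Nr3c1 overlapped, for 0 genes.

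The combination differed from vehicle without overlap in 7 genes, of which 6 were lower and Nr3c1 was higher by 0.33. The 6 differences were -3.69 for Klf9, -3.02 for Fkbp5, -3.00 for Ddit4, -2.04 for Tsc22d3, -1.76 for Per1 and -1.44 for Zbtb16. Klf9 and Zbtb16 averaged under 1 RPKM with the combination, and the filter kept them only because of their level in other groups. Over all genes 28.8% were lower and 20% higher, so that 41.0% of the genes without overlap were higher, and 52.2% after scaling by median ratios. Against anti-PD-1 alone, the combination was lower in Klf9 (-1.41) and higher in Cdkn1a (0.74) without overlap, beside 15.3% of all genes lower and 6.23% higher (29% of those without overlap higher, and 52.3% after scaling by median ratios). Without anti-PD-1 sample 1 that count was 6, namely 4 lower and 2 higher, beside 3409 of all genes without overlap in place of 2093. These 4 comparisons share samples, the vehicle group in 3 of them, and are not independent of each other.

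The combination and 7aaRGD alone differ by the antibody, and because anti-PD-1 at 28 DPI was among the reasons for choosing these genes, their values are again a description without a test. Of the 9 genes, 6 were lower and 1 was higher without overlap. Over all 9737 genes 25.8% were lower and 14.5% higher without overlap. Klf9 and Zbtb16 averaged under 1 RPKM in the combination and were kept by the filter only because of their level in the other groups.

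Klf9 was 20.03-fold lower, at 18.3 ± 4.66 with 7aaRGD and 0.911 ± 0.190 RPKM with the combination (SD, n = 4 and 3), a log2 difference of -3.30. Ddit4 was 9.20-fold lower, at 105.7 ± 16.5 and 11.5 ± 0.857 RPKM, a log2 difference of -3.08. Fkbp5 was 9.29-fold lower, at 62.7 ± 20.7 and 6.75 ± 1.50 RPKM, a log2 difference of -3.01. The 3 genes with the widest gaps on the log2(RPKM + 1) scale thus encode a transcription factor, an mTORC1 inhibitor and a receptor chaperone.

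Tsc22d3 was 3.52-fold lower, at 46.1 ± 9.48 and 13.1 ± 3.29 RPKM (log2 difference -1.75), and Per1 was 2.71-fold lower, at 37.6 ± 12.5 and 13.9 ± 2.76 RPKM (log2 difference -1.34). Zbtb16 differed by -1.61 on the log2 scale, at 2.73 ± 1.38 and 0.144 ± 0.147 RPKM with the value under the constant set to 0. Its means differed 18.9-fold, more than those of Ddit4 and Fkbp5, but this ratio rests on a level under 1 RPKM. Cdkn1a was higher, at 22.3 ± 2.66 with 7aaRGD and 57.2 ± 7.27 RPKM with the combination, a log2 difference of 1.32. Sgk1 differed by -0.22 and Nr3c1 by 0.08, and in both the groups overlapped.

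**Figure D2:**
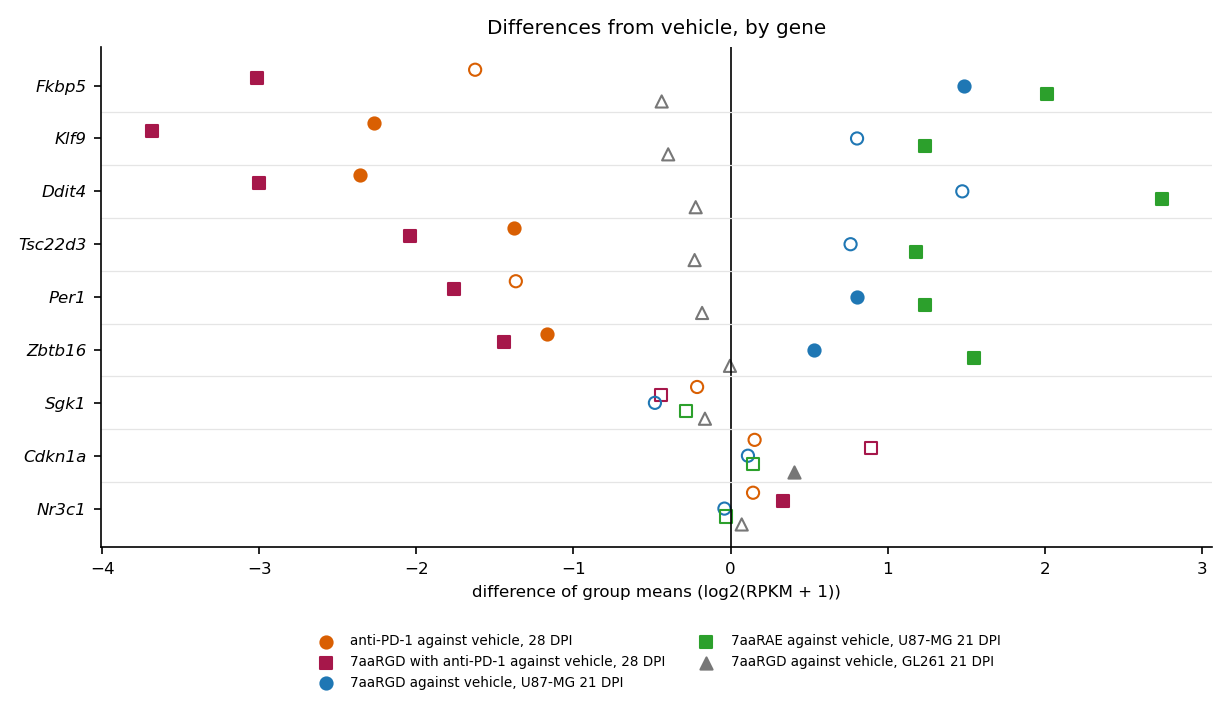
Difference of group means in log2(RPKM + 1) for each of the 9 genes, against vehicle: anti-PD-1 and the combination at 28 DPI, 7aaRGD and 7aaRAE in U87-MG gliomas, and 7aaRGD in GL261 gliomas at 21 DPI; filled symbols mark groups that did not overlap. Fkbp5, Tsc22d3, Per1, Zbtb16, Ddit4 and Klf9 lie under 0 at 28 DPI and above 0 in U87-MG gliomas, from -3.69 (Klf9, combination) to 2.74 (Ddit4, 7aaRAE).

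Genes outside the 9 were tested in this comparison with limma. Over all genes 36.6% passed an adjusted p of 0.05, with 23.5% lower and 13% higher. Of these calls 35.6% were rises, and 52.5% after scaling by median ratios. Other genes that glucocorticoids are known to induce moved in both directions. Of 25 tested, 8 fell and 4 rose, with a median log2 difference of -0.29 beside -0.07 over all genes. The 4 largest changes were falls, of Sult1a1, a sulfotransferase (-2.14), of Il1r2, the decoy receptor of interleukin-1 (-1.66), of the metallothionein Mt2 (-1.36), and of Lcn2, an iron-carrier-binding protein (-1.35). Among 13 genes that the receptor is known to repress, 7 rose at an adjusted p under 0.05 and the other 6 did not pass, with a median of 0.66. The largest rises were of Nos2, the inducible nitric oxide synthase, from 3.48 to 54.7 RPKM (3.67), of the chemokine Ccl5 (2.38), of the prostaglandin synthase Ptgs2 (2.00) and of Il1b (1.60).

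Lists that share regulators with some of the 9 genes were read beside them. Of 12 circadian clock genes, 4 fell and 1 rose (median -0.23), the falls including the repressors Cry1 (-0.85), Per2 (-0.44) and Cry2 (-0.40), and the rise being that of Bhlhe40 (0.57); after scaling by median ratios, 2 fell and Per2 did not pass. Among 20 immediate early genes, 9 rose (median 0.51), led by Nr4a2 (1.57), Egr2 (1.52), Fosb (1.46) and Egr3 (1.28). Of 13 genes of hypoxia and the integrated stress response, 9 rose (median 0.79), with the growth factor Vegfa at 2.82, the oxygen sensor Egln3 at 1.70, Ndrg1 at 1.41 and the glucose transporter Slc2a1 at 1.28, whereas Ddit4, which hypoxia also induces, was lower. Of 13 p53 targets, 3 rose and 4 fell (median 0.19), with the death receptor Fas at 0.80, Phlda3 at 0.53, Ccng1 at 0.52 and Trp53inp1 at -0.73, while Cdkn1a was higher; after scaling by median ratios, 5 rose and 2 fell.

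Chaperones of the receptor and genes of steroid handling were read next. Of 8 genes of chaperones and related receptors tested, 4 rose, namely the HSP90 genes Hsp90b1 (0.51), Hsp90aa1 (0.45) and Hsp90ab1 (0.26) and the co-chaperone Stip1 (0.36), with a median of 0.29. Of 3 genes of steroid metabolism and transport, the efflux pump Abcb1a rose (0.66) and the reductase Srd5a3 fell (-0.19), the latter not after scaling by median ratios.

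**Figure D3:**
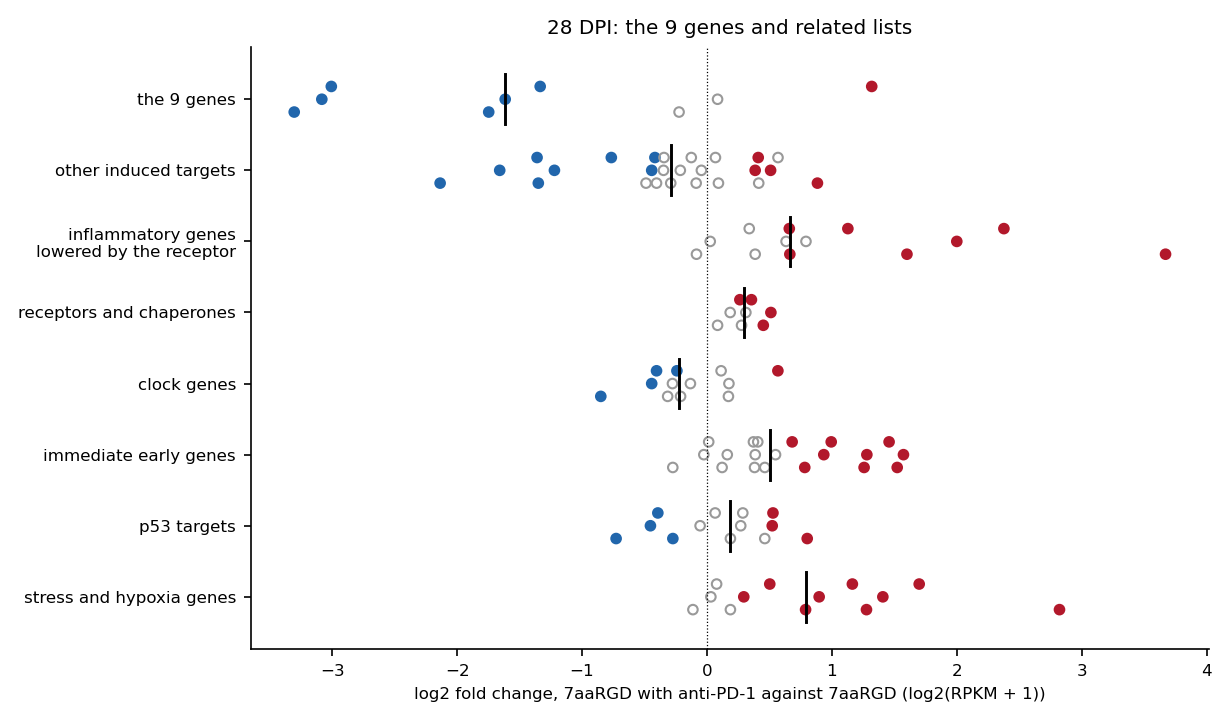
Log2 difference between the combination and 7aaRGD at 28 DPI for every tested gene of 8 lists, with 1 point per gene, filled where the limma adjusted p was under 0.05 (red higher, blue lower), and a vertical line at the median of the list. Of the 9 genes followed here, 6 lie low and Cdkn1a lies high. For them this contrast is a description, so the fill of their points is not to be read as a test result. Among the other lists, 7 of 13 repressed targets and 9 of 13 stress and hypoxia genes passed as higher.

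Markers of other cells moved with the same samples. The summed level of 7 NK cell markers was 2.31 to 8.68 RPKM with vehicle and 1.45 to 8.46 RPKM with 7aaRGD, but 42.6, 50.4 and 1.87 RPKM in anti-PD-1 samples 1 to 3 and 20.2, 69.8 and 67.4 RPKM with the combination. Anti-PD-1 sample 3, which held the highest Fkbp5 of the 6 antibody samples, thus also held the lowest NK marker level of them. The sum of 7 dendritic cell markers was 1.90 to 3.97 RPKM with vehicle, 1.57 to 4.18 RPKM with 7aaRGD, 18.5, 8.77 and 4.45 RPKM with anti-PD-1 and 14.2 to 17.5 RPKM with the combination. The sum of 6 T cell markers was 1.25 to 2.31 RPKM with vehicle, 0.744 to 1.68 RPKM with 7aaRGD, 4.41, 2.74 and 1.21 RPKM in anti-PD-1 samples 1 to 3 and 3.50 to 5.73 RPKM with the combination. The sum of 5 endothelial markers was 2.94 to 5.83 RPKM with vehicle and 3.94 to 6.98 RPKM with 7aaRGD. It was 5.61, 9.87 and 12.7 RPKM in anti-PD-1 samples 1 to 3 and 8.33 to 13.5 RPKM with the combination. For this sum anti-PD-1 sample 3 was the highest of its group, whereas for NK, dendritic and T cell markers it was the lowest. For NK, dendritic, T cell and endothelial markers the combination thus lay above all vehicle and 7aaRGD samples. Of 10 monocyte and macrophage markers 3 rose and Mrc1, the mannose receptor of alternatively activated macrophages, fell, and of 9 microglial markers 2 rose. The monocyte and macrophage sum was 471.6 to 902.9 RPKM with vehicle and 435.6 to 1477 RPKM with 7aaRGD. It was 572.8, 1520 and 1390 RPKM in anti-PD-1 samples 1 to 3 and 638.4 to 1415 RPKM with the combination, so that it overlapped. The sum of 9 neutrophil markers overlapped, at 123.6 to 369.3 RPKM with 7aaRGD and 198.8 to 336.4 RPKM with the combination. Among the defining genes, Klra8 and Eomes were under 0.1 RPKM in the groups without antibody, and Xcr1 was so in all 4 groups. The part of cell composition in the shifts of the 9 genes was not tested.

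**Figure D4:**
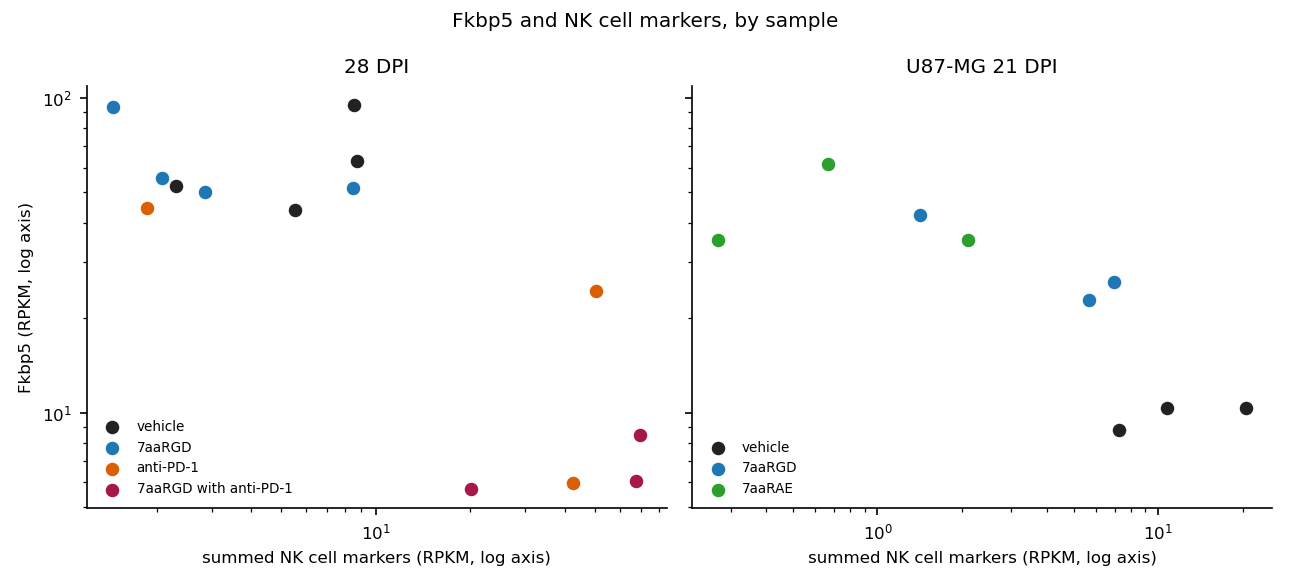
Fkbp5 (RPKM, log axis) against the summed level of 7 NK cell markers (RPKM, log axis), with 1 point per sample at 28 DPI and in U87-MG gliomas. At 28 DPI anti-PD-1 sample 3, at 44.6 RPKM of Fkbp5 and 1.87 RPKM of NK markers, lies with the vehicle and 7aaRGD samples; in U87-MG gliomas the 3 vehicle samples have low Fkbp5 and the highest NK marker sums.

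In U87-MG gliomas Fkbp5, Per1, Zbtb16, Tsc22d3, Ddit4 and Klf9 had higher means with both peptides than with vehicle, whereas Sgk1, Cdkn1a and Nr3c1 did not separate. The file names no replicate numbers here, so samples are given in file order. Fkbp5 was at 10.4, 8.80 and 10.3 RPKM with vehicle, at 26.0, 42.4 and 22.8 RPKM with 7aaRGD and at 35.2, 61.8 and 35.4 RPKM with 7aaRAE. Every peptide sample was above every vehicle sample. Per1 did likewise, at 10.3, 12.3 and 10.5 RPKM with vehicle, 13.3, 23.8 and 25.2 RPKM with 7aaRGD and 20.6, 30.1 and 33.1 RPKM with 7aaRAE. Zbtb16 was at 0.0857, 0.0595 and 0.181 RPKM with vehicle, 0.188, 1.72 and 0.268 RPKM with 7aaRGD and 1.69, 3.58 and 1.78 RPKM with 7aaRAE. For Zbtb16 the lowest 7aaRGD sample cleared the highest vehicle sample by little, and the gene passed the filter on low values only because of the peptide groups.

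Tsc22d3, Ddit4 and Klf9 were high in all 7aaRAE samples and in most 7aaRGD samples. Tsc22d3 was at 30.5, 21.4 and 22.1 RPKM with vehicle, 25.5, 62.0 and 46.8 RPKM with 7aaRGD and 34.9, 96.7 and 52.9 RPKM with 7aaRAE. Ddit4 was at 16.6, 8.89 and 9.83 RPKM with vehicle, 14.6, 101.2 and 24.3 RPKM with 7aaRGD and 43.3, 180.0 and 69.5 RPKM with 7aaRAE. Klf9 was at 0.462, 0.349 and 0.804 RPKM with vehicle, 0.583, 3.95 and 1.42 RPKM with 7aaRGD and 1.05, 6.69 and 1.98 RPKM with 7aaRAE. In these genes the first 7aaRGD sample lay within the vehicle range, and the second sample of each peptide group was the highest of its group. Sgk1, Cdkn1a and Nr3c1 overlapped between all groups: Sgk1 ranged from 108.2 to 190.1 RPKM with vehicle and 64.0 to 142.2 RPKM with the peptides, Cdkn1a from 14.6 to 27.4 RPKM and Nr3c1 from 22.7 to 27.8 RPKM over all 9 samples.

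As a description, 7aaRAE against vehicle showed 6 genes higher without overlap and none lower, beside 7% of all genes higher and 9.46% lower (42.5% of those without overlap higher, and 57.5% after scaling by median ratios). The log2 differences were 2.74 for Ddit4 (8.29-fold), 2.01 for Fkbp5 (4.48-fold), 1.55 for Zbtb16, 1.24 for Per1, 1.24 for Klf9 and 1.18 for Tsc22d3. Klf9 and Zbtb16 averaged 0.538 and 0.109 RPKM with vehicle and were kept by the filter only because of the peptide groups. The counts in this paragraph include them where they did not overlap. For 7aaRGD against vehicle 3 genes were higher, Fkbp5 by 1.49, Per1 by 0.81 and Zbtb16 by 0.53, beside 4.43% of all genes higher and 6.39% lower (40.9% of those without overlap higher, and 53.6% after scaling by median ratios). Neither count of the 9 genes moved with that scaling. Ddit4 (1.48), Klf9 (0.81) and Tsc22d3 (0.76) overlapped there. Without the first 7aaRGD sample, all 6 stood above vehicle, beside 3310 of all 9665 genes without overlap in place of 1046. Without the third 7aaRGD sample, 3 genes were higher and 2 lower, beside 1504 of all genes. Without the first vehicle sample 5 genes were higher, beside 2115 of all genes. Both comparisons use the same 3 vehicle samples.

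The peptides differ by the motif change and were compared directly in both tumor models. In U87-MG gliomas Zbtb16 was kept by the filter only because of its level with 7aaRAE and is left out of the count. Of the other 8 genes, 0 passed between 7aaRGD and 7aaRAE (limma over 9665 genes), as did 0% of all genes. At an unadjusted p under 0.05, 0 of the 8 and 3.38% of all genes stood. The differences, 7aaRGD minus 7aaRAE on the log2(RPKM + 1) scale, were -1.27 for Ddit4 (95% interval -2.83 to 0.29), -0.52 for Fkbp5 (-1.11 to 0.06), -0.44 for Klf9 (-1.57 to 0.71), -0.43 for Per1 (-0.98 to 0.11) and -0.42 for Tsc22d3 (-1.29 to 0.46). The groups overlapped for each gene, and the adjusted p was 0.9999 in limma. Zbtb16 differed by -1.02 and overlapped as well. The intervals leave room for several-fold differences between the peptides, Ddit4 most of all.

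Other induced genes were higher in the same samples. Of 26 that could be compared, 10 were higher with 7aaRAE than with vehicle without overlap and 0 lower, namely Il1r2 (1.48), Mt2 (1.35), Sult1a1 (1.23) and the kinase Map3k6 (1.02) among them, and 6 were higher and 0 lower with 7aaRGD. Of 12 repressed genes, 3 were higher with 7aaRAE, Tnf (0.79), Ccl3 (0.73) and Ccl4 (0.45), and Il1b was lower (-0.48). Among 12 clock genes Cry1 (0.82), Per2 (0.39) and Cry2 (0.38) were higher with 7aaRAE, and of 18 immediate early genes 4 were higher with 7aaRAE and 5 with 7aaRGD. Il1r2, Mt2 and Sult1a1 are thus 3 induced genes that were lower in the combination at 28 DPI and higher with 7aaRAE here. The sum of NK markers was 10.7, 7.24 and 20.5 RPKM with vehicle, 6.93, 1.42 and 5.69 RPKM with 7aaRGD and 2.11, 0.665 and 0.271 RPKM with 7aaRAE, so that vehicle did not overlap with either peptide. The sum of 10 monocyte and macrophage markers was 120.7 to 141.5 RPKM with vehicle and 74.5 to 115.4 RPKM with 7aaRAE, and that of 5 astrocyte markers 4.05 to 6.66 and 3.48 to 4.03 RPKM. With 7aaRGD these sums were 87.4 to 184.8 and 3.56 to 4.47 RPKM, and both overlapped with vehicle. Of 10 monocyte and macrophage markers, 9 could be compared and 4 were lower with 7aaRAE, and of 9 microglial markers 3 were lower (1 after scaling by median ratios). Klrb1c and Klra8, which define NK cells, were under 0.1 RPKM in all 3 groups, and the part of these cells in the shifts of the 9 genes was not tested.

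In GL261 gliomas at 21 DPI, vehicle mice were set against naive mice to describe the tumor-bearing brain. Of 7 genes over 1 RPKM in both groups 6 passed, 5 higher and 1 lower, in a comparison in which 82.9% of all 9728 genes passed (34.6% higher, 48.2% lower), so that the count is close to the background. The median of all genes was -0.14 on the log2 scale, and 0.00 after scaling by median ratios, under which these calls and their directions were the same.

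Cdkn1a showed the largest change of the 9, from 3.81, 5.51 and 5.35 RPKM in naive samples 1 to 3 to 106.3, 108.9 and 105.6 RPKM with vehicle, a rise of 21.9-fold (log2 difference 4.21, SE 0.111, limma adjusted p = 2.31e-08). Nr3c1 (chr18:39410545-39519421, minus strand), the receptor gene, fell from 48.4, 50.2 and 49.7 RPKM to 15.0, 14.3 and 16.4 RPKM, or 3.24-fold (log2 difference -1.64, SE 0.0610, limma adjusted p = 1.12e-07). The receptor gene was thus higher in naive mice than in any glioma sample of the 3 experiments, whose levels lay between 11.6 and 27.8 RPKM, although the tables were normalized separately.

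Per1 rose from 5.81 ± 0.525 to 30.2 ± 4.11 RPKM (SD, n = 3 each, log2 difference 2.19, SE 0.104, limma adjusted p = 3.50e-07) and Ddit4 from 8.68 ± 1.66 to 49.8 ± 9.61 RPKM (log2 difference 2.39, SE 0.158, limma adjusted p = 2.24e-06). Tsc22d3 rose from 19.5 ± 4.88 to 35.2 ± 8.78 RPKM (log2 difference 0.82, SE 0.222, limma adjusted p = 0.00867), as did Sgk1 from 74.1 ± 3.31 to 101.9 ± 16.4 RPKM (log2 difference 0.44, SE 0.106, limma adjusted p = 0.00463). Klf9, which the filter kept only because of its level in glioma, was at 0.630 ± 0.0573 RPKM in naive and 2.97 ± 1.51 RPKM in vehicle mice (log2 difference 1.21). In all of these the 3 vehicle samples lay above the 3 naive samples. Fkbp5 did not pass: it was at 7.82, 7.96 and 8.35 RPKM in naive mice and at 17.0, 8.30 and 4.58 RPKM with vehicle (log2 difference 0.11, 95% interval -0.71 to 0.94, limma adjusted p = 0.778). Zbtb16, at 0.125 and 0.236 RPKM, was under the filter and was not tested.

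The other lists are given for their named genes, and the size of their counts is not read as a result, since 82.9% of all genes passed. Of 24 other induced genes 13 rose and 11 fell, with Thbs1 (4.55), Il1r2 (4.19) and Cebpb (3.07) highest and Sult1a1 at -2.94. Of 14 repressed genes 11 rose and 2 fell, led by Ccl5 (7.41), Cxcl10 (6.81), Il1b (4.68) and Nos2 (4.56). Of 11 clock genes 2 rose and 9 fell, with Bhlhe40 at 4.76, Bhlhe41 at -2.17, Hlf at -1.87 and Tef at -1.73. Immediate early genes rose in 13 of 18 cases and fell in 2, led by Ier3 (4.50) and Fosl2 (2.64), and p53 targets rose in 9 of 13 and fell in 3, with Fas at 2.52, Sesn1 at -2.41, Pmaip1 at 1.98 and Btg2 at 1.39. Hypoxia and stress genes rose in 10 of 13 and fell in 2, with Vegfa (4.29), Ndrg1 (2.98) and Egln3 (2.46) in front. Of 9 genes of chaperones and related receptors, a list that also counts Nr3c1, 4 fell and Hspa8 rose by 0.49. The falls were those of Nr3c1, the mineralocorticoid receptor gene Nr3c2 (-1.78), Fkbp4 (-1.08) and Hsp90b1 (-0.63). Of 9 coregulators 7 fell and 2 rose, led by Ncoa2 at -0.95 and Ncoa3 at -0.74, and 5 fell after scaling by median ratios. Of 3 steroid genes, Abcb1a (2.44) and Srd5a3 (0.20) rose and H6pd fell (-0.24), the fall not being called after that scaling.

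Cell composition differed between these groups. All 9 microglial markers fell, and 9 of 10 monocyte and macrophage markers rose, with sums of 51.1 to 70.4 RPKM in naive and 1623 to 3349 RPKM in vehicle mice. A fall of Nr3c1 in each cell and a smaller share of microglia cannot be told apart here.

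In GL261 gliomas at 21 DPI, no gene of the 8 tested passed the threshold between a peptide and vehicle. For 7aaRGD against vehicle, 0 of 8 passed in limma beside 0.148% of all 9441 genes, and 1 of the 8 (Cdkn1a) and 13.6% of all genes had an unadjusted p under 0.05. The 14 genes called among all became 125 without vehicle sample 3, and the share of rises among them went from 92.86% to 58.4%; the 8 genes still gave 0. Cdkn1a was the one gene whose groups did not overlap, at 144.3, 162.5 and 121.3 RPKM with 7aaRGD against 106.3, 108.9 and 105.6 RPKM with vehicle (log2 difference 0.40, SE 0.0993, limma adjusted p = 0.171). For 7aaRAE against vehicle, 0 of 8 passed in limma beside 0% of all genes, with Cdkn1a and 6.37% of all genes at an unadjusted p under 0.05. Cdkn1a again did not overlap, at 137.0, 121.8 and 132.2 RPKM (log2 difference 0.28, SE 0.0993, limma adjusted p = 0.718), and the same vehicle samples stood on the other side.

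For 7aaRGD against 7aaRAE, 0 of 8 genes passed in limma beside 0% of all genes, with Sgk1 and 5.52% of all genes at an unadjusted p under 0.05. Sgk1 did not overlap, at 94.3, 96.3 and 80.8 RPKM with 7aaRGD and 105.2, 123.0 and 112.7 RPKM with 7aaRAE (log2 difference -0.33, 95% interval -0.59 to -0.06, SE 0.117, limma adjusted p = 0.791). Fkbp5, at 3.72, 6.64 and 9.41 RPKM with 7aaRGD and 6.15, 6.18 and 3.76 RPKM with 7aaRAE, had no sample within the naive range of 7.82 to 8.35 RPKM, and all 3 samples with 7aaRAE lay under it. In none of the other lists did a gene pass in these 3 comparisons.

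Over the 3 experiments the order of group means for Fkbp5 ran from 5.36 RPKM (7aaRAE, GL261, 21 DPI) to 63.5 RPKM (vehicle, 28 DPI). The 4 groups of the first experiment (5.36 to 9.96 RPKM), the combination at 28 DPI (6.75 RPKM) and the U87-MG vehicle group (9.84 RPKM) lay at the low end. Above them came anti-PD-1 (25.0 ± 19.3 RPKM), U87-MG with 7aaRGD (30.4 ± 10.5 RPKM) and with 7aaRAE (44.1 ± 15.3 RPKM), and then 7aaRGD (62.7 ± 20.7 RPKM) and vehicle (63.5 ± 22.1 RPKM) at 28 DPI. Neighbours in this order overlapped in their samples, except naive mice (7.82 to 8.35 RPKM) and the U87-MG vehicle group (8.80 to 10.4 RPKM). Cdkn1a had another order, from 4.89 RPKM in naive mice to 142.7 RPKM with 7aaRGD in GL261 gliomas at 21 DPI, with U87-MG groups at 17.4 to 19.5 RPKM. Because each table was normalized separately, these levels are set side by side without a test.

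Across tumor-bearing samples the genes formed a tight set and a loose one. Among 8911 genes at a mean of at least 1 RPKM in all 3 tables, the gene most like Fkbp5 was Klf9, with a mean Pearson r of 0.925 over the tables (0.977 in GL261 at 21 DPI, 0.962 at 28 DPI and 0.835 in U87-MG gliomas, over 9, 14 and 9 samples). It was followed by the cytokine receptor gene Lifr (0.917), the lipid-binding Osbpl11 (0.916), the lysosomal acetyltransferase Hgsnat (0.909) and Ddit4 (0.895). Tsc22d3 ranked at place 9 (0.871) and Per1 at place 81 (0.768), whereas Sgk1 (-0.075), Cdkn1a (-0.339) and Nr3c1 (-0.467) ranked at places 5540, 7454 and 8097. Zbtb16, under 1 RPKM in the first experiment, was not ranked. For Tsc22d3 the nearest genes were Klf9 (0.929), Ddit4 (0.922), Per1 (0.903), Rnf220 (0.888) and Sla (0.882). These correlations are descriptions over samples that share treatments, and Klf9, Ddit4 and Per1 were chosen together with Fkbp5.

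Part of this likeness lay within groups. After group means were removed, Fkbp5 and Klf9 had a Pearson r of 0.978 in GL261 gliomas at 21 DPI, 0.863 at 28 DPI and 0.897 in U87-MG gliomas, and 0.965, 0.555 and 0.552 without the 2 samples farthest from the median of Fkbp5. In vehicle mice of the first experiment, for instance, sample 1 held 17.0 RPKM of Fkbp5 and 4.59 RPKM of Klf9, sample 2 held 8.30 and 2.70 RPKM, and sample 3 held 4.58 and 1.61 RPKM. With Ddit4 the values were 0.807, 0.685 and 0.896, and 0.860, 0.132 and 0.590 without those samples, so that at 28 DPI this relation rested on 2 samples. With Tsc22d3 they were 0.780, 0.776 and 0.755, and 0.859, 0.545 and 0.294 without them. Per1 was less close to Fkbp5, at 0.556, 0.503 and 0.226, and at 0.742, 0.103 and -0.205 without them. Zbtb16 differed between the tables, at 0.306, -0.127 and 0.947, and at 0.067, -0.080 and 0.791 without them. Cdkn1a was opposed or unrelated in all 3 tables (-0.256, -0.270 and -0.287). Replicates of the same treatment therefore differed together in Fkbp5 and Klf9.

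**Figure D5:**
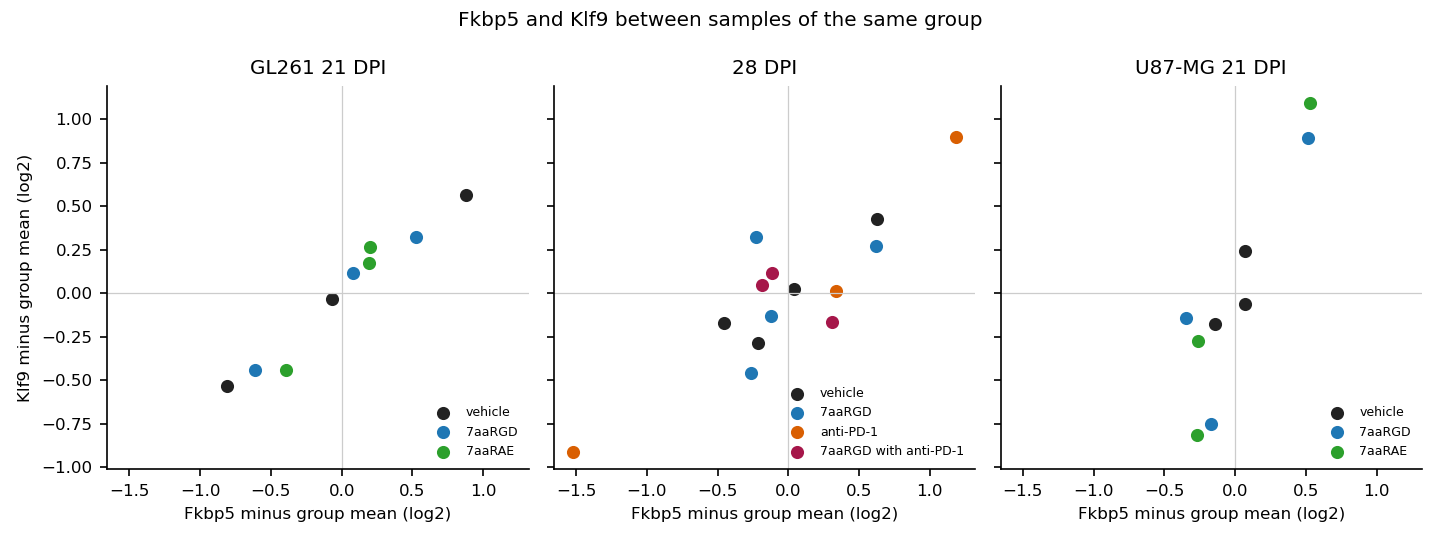
Klf9 against Fkbp5, each as log2(RPKM + 1) minus the mean of its own group, with 1 point per tumor-bearing sample and 1 panel per experiment. The points rise together with a Pearson r of 0.978 in GL261 gliomas at 21 DPI, 0.863 at 28 DPI, where 2 anti-PD-1 samples form the ends, and 0.897 in U87-MG gliomas.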

How the data were processed

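RNA of CD11b+ cells, sorted by flow cytometry from mouse brains, was sequenced as stranded poly-A libraries. According to the submitters' processing notes and the study's methods, reads were trimmed with Trimmomatic, aligned to mm10 with STAR and counted with HTSeq 0.11.1. The deposited values are RPKM to which the authors had added a constant of 2; this was read from the values, since genes without signal hold exactly 2 and the rest times exonic length sums to nearly the same total per sample. The constant was subtracted, and values under it (6.58% to 18.01% of rows with signal per sample) were set to 0 before logarithms. In the GL261 and 28 DPI tables the differences between replicates nearly lack 1 dimension (7 of 8 and 9 of 10 present, against 6 of 6 in the U87-MG table); the sources used here describe no such step. Read counts cannot be recovered, so depth is unknown and no count test was run.

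Of 54513 rows 98.8% were matched to GENCODE or RefSeq, and 21849 protein-coding genes were kept. For those averaging 1 RPKM or more, log2(RPKM + 1) was fitted with limma 3.58.1 in R 4.3.3 (eBayes with a trend) over the tumor-bearing groups of an experiment, or over vehicle and naive alone, with Benjamini-Hochberg adjustment over all genes and a threshold of 0.05. Errors are SD over samples, and p-values measure the spread between these samples, which the labels do not tie to litters or days.

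The 9 genes, the other lists, the markers, the tests and the alternatives were chosen with earlier results of these data known. In the 6 comparisons closest to that choice, values are described by group ranges without a test. For the 9 genes, so are the combination against 7aaRGD and 7aaRGD against 7aaRAE in U87-MG gliomas, which had been planned as tests. Every one of the 9 genes is named; of the other lists, up to 4 genes past the threshold by size of change are named in tested comparisons, and in described comparisons genes whose groups did not overlap. Alternatives were pseudocounts of 0.1 and 5, a filter at 5 RPKM or none, scaling by median ratios, fitting only the groups compared, a replicate block and leaving out each sample; 1 residual degree of freedom less was added after seeing the data. The fit was tested on simulated data. The 5 labelled samples without values (naive nude mice, anti-PD-1 sample 4 and combination sample 4) were not analysed here. The coregulator list at 28 DPI is not reported here.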

Additional observations from a re-analysis of the deposited data

Results flagged for a closer look

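Among the 4-sample groups at 28 DPI, 18 gene and group pairs were checked for a sample far from the others, of which chance gives about 1 in 20. Fkbp5 was at 93.53 RPKM in 7aaRGD sample 1, with the other 3 samples between 50.2 and 55.5 RPKM. In the same sample Klf9, Tsc22d3 and Ddit4 were at 21.7, 48.8 and 110.7 RPKM, within the range of their group. Cdkn1a was at 67.34 RPKM in vehicle sample 1, with the other 3 samples between 21.6 and 25.5 RPKM, while Fkbp5 in that sample was at 52.4 RPKM. This vehicle sample keeps Cdkn1a of the combination from standing clear of the vehicle group.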

How the results depend on the processing

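Counts of the 9 genes past the threshold include genes that the filter kept only because of their high group. They were 0, 0 and 0 for the peptide comparisons in GL261 gliomas. Vehicle against naive mice gave 7, beside 82.9% of all genes. No such count is given for the combination against 7aaRGD or for 7aaRGD against 7aaRAE in U87-MG gliomas, since the choice of genes bears on both. The counts given stayed within 1.5 times under every pseudocount, filter, scaling and sample choice tried. None of the single-gene results repeated in these comparisons reversed or changed its side of the threshold. With a filter at 5 RPKM, the count of 7 became 6, since fewer genes were tested. Leaving out each sample gave ranges of 0 to 0 and 7 to 7 in these. Among the described comparisons at 28 DPI it gave 4 to 7 for anti-PD-1 against vehicle and 1 to 2 for 7aaRGD against vehicle. It gave 7 to 8 for the combination against vehicle and 2 to 6 for the combination against anti-PD-1. In U87-MG gliomas it gave 3 to 6 for 7aaRGD and 6 to 7 for 7aaRAE against vehicle. These are counts of groups without overlap, which leaving out a sample can only raise or leave as they are. Their lower ends were thus fixed in advance and show no stability, and the numbers over all genes rose as well. With scaling by median ratios, 7aaRGD against vehicle at 28 DPI gave 0 genes in place of 1. Over all genes, 7aaRGD against vehicle in GL261 gliomas gave 14 calls, 52 without a filter, 1 with only the groups compared, and 0 with a pseudocount of 0.1, the filter at 5 RPKM, median ratios, the block or 1 residual degree of freedom less. Leaving out 1 sample gave 0 or 1 calls, except 125 without vehicle sample 3, of which 58.4% were rises (92.86% of the 14). 7aaRGD against 7aaRAE there gave 0, but 7 without a filter and 6 with only the groups compared.

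Samples that share a replicate number mostly did not deviate together. In GL261 gliomas at 21 DPI 1 of 18 same-number pairs had a residual correlation over 0.1, and at 28 DPI 3 of 19 did. Since the differences between replicates nearly lack 1 dimension in both experiments, this check cannot exclude a pairing. With the replicate block, the counts of the 9 genes were again 0, 0, 0 and 7. The calls over all genes were 0 for the peptide comparisons in GL261 gliomas and 7955 for vehicle against naive (8060 without). For the combination against 7aaRGD they were 3005 (3561 without). No paired analysis was possible because the columns carry no replicate number in U87-MG gliomas. As the depth is unknown, levels under 1 RPKM, such as those of Zbtb16, carry no counting error here.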
